A study of Mus musculus with 12 samples.

Results

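The net change in miRNAs of mouse embryonic Pdx1-Cre progenitors between embryonic day (E) 9.5 and E11.5 was measured in the 6 small RNA libraries whose labels give those stages, 3 at each, out of 12 libraries in the study. All 1053 miRNA entries of the count table (633 mature arms and 420 precursors) were taken in. In both groups the cells carried Pdx1-Cre, a Cre recombinase transgene under the control of Pdx1, a gene of the pancreatic and duodenal epithelium, and a Cre-dependent Rosa26 LSL-tdTomato reporter. Trunks were dissected and tdTomato-positive cells were sorted, so that any cell with a history of Pdx1-Cre activity could enter the sort, whether pancreatic, duodenal or other. Crosses for lineage tracing used males with 1 mir-302 allele replaced by GFP, and the labels do not state the mir-302 genotype of the sorted embryos. The libraries of a stage share a number in their names that differs from that of the other stage, so that a batch marked by this number and the stage cannot be told apart. The labels do not say how many embryos went into a library, so p-values measure the spread between these samples, which may be technical.

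A miRNA gene is transcribed into a hairpin precursor, and 1 or both arms (5p and 3p) are cut out as mature miRNAs short enough to be sequenced whole. A mature miRNA guides Argonaute proteins to target mRNAs, chiefly through its seed, the bases 2 to 8 from its 5′ end, so that miRNAs with a shared seed can repress overlapping targets. In early embryos the miR-302 and miR-290 clusters are known as miRNAs of pluripotent and early embryonic cells, let-7 as a family that accumulates during differentiation, and miR-375 as a miRNA of the pancreatic endocrine lineage.

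The sequences below are those of mature miRNAs on which the results turn, with the seed in capitals (RefSeq, GRCm38.p6). The first set rose from E9.5 to E11.5, together with let-7e-5p, which lies between the first and the third on the genome.
miR-99b-5p: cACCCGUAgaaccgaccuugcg
let-7e-5p: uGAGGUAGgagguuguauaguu
miR-125a-5p: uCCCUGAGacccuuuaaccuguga
miR-183-5p: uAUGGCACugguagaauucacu
miR-182-5p: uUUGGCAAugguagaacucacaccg
miR-3099-3p: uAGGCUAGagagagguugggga
let-7e-5p is shown as the neighbour of miR-99b-5p and miR-125a-5p, and its own change did not pass the test. miR-375-3p also rose.

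The next set fell. It holds the embryonic clusters, in which miR-302b-3p, miR-302d-3p and miR-294-3p share the seed AAGUGCU, and miR-290a-5p, miR-292a-5p and miR-293-5p share the seed CUCAAAC. miR-294-3p did not pass the test as a single arm.
miR-302b-3p: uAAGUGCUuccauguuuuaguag
miR-302d-3p: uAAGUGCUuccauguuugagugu
miR-302c-3p: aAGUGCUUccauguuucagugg
miR-294-3p: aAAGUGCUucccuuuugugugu
miR-292a-5p: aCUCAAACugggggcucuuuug
miR-293-5p: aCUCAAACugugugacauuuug
miR-290a-5p: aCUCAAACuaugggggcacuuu
miR-295-5p: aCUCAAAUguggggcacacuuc
miR-302a-3p and miR-1a-3p, which had no sequence in the RefSeq table used, also fell.

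The last set compares arms with a shared seed that behaved differently, the let-7 family and the pair miR-27a-3p and miR-27b-3p. It ends with miR-21a-5p and miR-22-3p, abundant arms that fell.
let-7a-5p: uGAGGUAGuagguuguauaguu
let-7b-5p: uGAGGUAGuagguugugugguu
let-7c-5p: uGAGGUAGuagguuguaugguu
let-7f-5p: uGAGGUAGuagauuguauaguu
miR-27a-3p: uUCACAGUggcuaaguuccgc
miR-27b-3p: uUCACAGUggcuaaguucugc
miR-21a-5p: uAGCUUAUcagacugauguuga
miR-22-3p: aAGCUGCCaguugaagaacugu
Counted from 1 at the 5′ end and read from let-7a-5p, let-7b-5p differs by A17G and A19G, let-7c-5p by A19G, let-7e-5p by U9G and let-7f-5p by G12A. miR-27b-3p differs from miR-27a-3p by C19U.

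The E9.5 libraries were far smaller than the E11.5 libraries. They held 53996 to 80075 reads on miRNA entries, against 417743 to 1103383 at E11.5, and the stage totals differed 11.9-fold. Levels are given in CPM, reads divided by the TMM-scaled size of their library and brought to a common total, where 1 read is worth 10.7 to 25.3 CPM at E9.5 and 0.915 to 2.28 CPM at E11.5. An entry without reads in a library could have reached 32.0 to 75.9 CPM at E9.5 and 2.74 to 6.84 CPM at E11.5 (3 reads). Such floors cover counting error only, as the reads were not collapsed to molecules. Replicates were also more alike at E11.5. The Spearman correlation across entries was 0.332 to 0.416 between E9.5 replicates and 0.637 to 0.671 between E11.5 replicates. Over the 62 arms with at least 50 reads in all 6 libraries, the median SD of the log2 CPM was 0.68 at E9.5 and 0.29 at E11.5. Precursor entries took 20.7, 21.8 and 36% of reads in E9.5 replicates 1 to 3 and 10.2 to 10.3% at E11.5.

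Across all entries, 26 of 571 tested changed between E9.5 and E11.5 (edgeR quasi-likelihood test with Benjamini-Hochberg adjustment, adjusted p under 0.05), which is 4.55% of those tested. Of these, 7 rose (1.23%) and 19 fell (3.33%). The risers were arms of the miR-99b/let-7e/miR-125a and miR-183 clusters, miR-375-3p and miR-3099-3p. The entries that fell were led in number by the miR-302 and miR-290 clusters, with let-7b-5p, miR-21a-5p, miR-22-3p, miR-27a-3p and miR-1a-3p among the more abundant ones. An unadjusted p under 0.05 was seen for 105 entries. The fit took 1 estimate of the spread from all 12 libraries, those of E8.5 and E10.5 included, so that leaving out a library of those stages can also change a call. The E9.5 and E11.5 libraries had separate ranges for all 7 risers and for 17 of the 19 that fell, whereas over all tested entries 16.6% lay higher and 5.95% lay lower without overlap. As 1 read is worth more CPM at E9.5 than at E11.5, an entry with 1 read in every library would lie lower without overlap. For entries with few reads a separate lower range is thus no evidence of a fall.

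**Figure D1:**
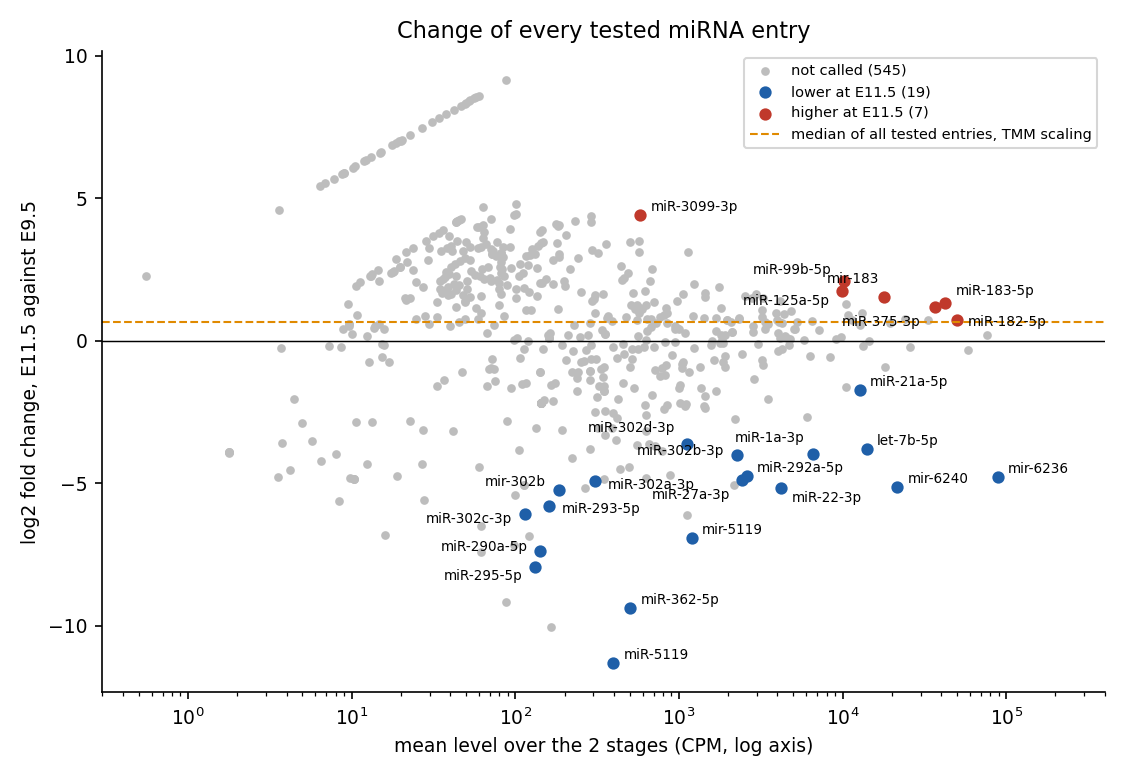
Log2 fold change of the 571 tested entries (E11.5 against E9.5, TMM scaling) against the mean level over both stages in CPM on a log axis. Red points are the 7 entries that rose, blue points the 19 that fell, grey points the 545 not called, and the dashed line is the median of all tested entries (0.66). The straight row of grey points at the upper left are entries with no reads at E9.5, whose fitted changes depend on the prior count.

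The scaling of the libraries decided which risers were called. The median log2 fold change of all tested entries was 0.66 with TMM scaling (0.60 with the 47 entries at 0 in 1 stage set at the bound that 3 reads over the stage give, or left out for 9 of them that had no more than 3 reads in the other stage). Under RLE scaling the same median was -0.05, a shift of -0.71, and the test called 27 entries, 0 higher and 27 lower. All 19 entries that fell with TMM scaling were also called with RLE scaling. All 7 risers stayed on the positive side with RLE scaling, and none of them passed the test there. Library size alone called 30 entries, 10 higher and 20 lower, among them all 26. On simulated counts TMM scaling also placed unchanged entries above 0 in this contrast. Those counts were drawn from mean levels over all 12 libraries, with rises and falls in equal number, unlike the calls here. They do not give the size of a shift in these data, and neither scaling is taken as the true one. An increase given below is therefore an increase relative to TMM scaling, and the RLE value is printed beside each of the 7 risers. Most other increases below are given with TMM scaling alone. With RLE scaling the log2 fold change was 0.48 for let-7e-5p, 0.89 for miR-143-3p, 2.36 for miR-181a-5p and 1.80 for miR-155-5p. The median of the miR-99/100 and miR-125 list was 1.74 with RLE scaling.

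The cluster of miR-99b, let-7e and miR-125a on chromosome 17 held 2 of the 7 risers. Positions here and below are in GRCm38. These miRNAs lie within Spaca6 on its strand, with miR-99b-5p (17830194 to 17830215) and let-7e-5p (17830366 to 17830387) in an intron and miR-125a-5p (17830817 to 17830840) in an exon. miR-99b-5p, of the miR-99/100 family, was at 4319.6, 3086 and 4147 CPM in the E9.5 libraries (replicates 1 to 3) and 12414, 18945 and 18272 CPM in the E11.5 libraries. The stages did not overlap, and the log2 fold change was 2.10 (standard error 0.40 and adjusted p = 0.00198, and 1.35 with RLE). The E10.5 mean of 8204 CPM lay between the means of the stages on either side.

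miR-125a-5p, a relative of lin-4, was at 4092, 2680.4 and 6853 CPM at E9.5 and 13499, 15463 and 16852 CPM at E11.5, again without overlap, a log2 fold change of 1.75 (standard error 0.47 and adjusted p = 0.0299, and 0.95 with RLE). At E10.5 its mean was still 4801 CPM. let-7e-5p was at 5749, 3364 and 9129 CPM at E9.5 and 19179.9, 11256 and 14056 CPM at E11.5. Its libraries did not overlap either, and its log2 fold change of 1.29 was not called (standard error 0.45 and adjusted p = 0.118). Within a library the ratio of miR-99b-5p to miR-125a-5p, which no scaling can alter, was 0.605 to 1.15 at E9.5 and 0.920 to 1.23 at E11.5. These ranges overlapped, so the stages could not be told apart by that ratio. The call of miR-125a-5p was lost when any 1 of E8.5 replicate 2, E9.5 replicate 2, E10.5 replicate 1 and E11.5 replicates 2 and 3 was omitted (1.30 to 1.76) and in 8 of 12 alternatives that kept all libraries. miR-99b-5p lost its call in 3 of 12 of these alternatives and in no fit that left out a library.

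Other loci encode arms of the same families. miR-99a-5p was at 97.4, 107 and 1897 CPM at E9.5 and 1614, 2282 and 2688 CPM at E11.5, with overlap through E9.5 replicate 3. miR-100-5p had 0, 3 and 2 reads at E9.5 and 222, 718 and 418 reads at E11.5, without overlap, and neither arm was called. miR-125b-5p, which shares the seed of miR-125a-5p, was at 861, 3663 and 1492 CPM at E9.5 and 1443, 1116 and 1206 CPM at E11.5, with the highest library at E9.5. Of the 9 members of the miR-99/100 and miR-125 list, 8 were tested, 2 rose, 0 fell and 6 lay higher at E11.5 without overlap, where the shares over all tested entries were 1.23% for a rise and 16.6% for higher without overlap. Their median log2 fold change was 2.52 (2.33 with the 2 members at 0 in a stage set at their bound), against 0.66 over all tested entries.

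miR-183 and miR-182, made from 1 cluster on chromosome 6 that lies between genes and known from sensory and neuroendocrine epithelia, were also higher at E11.5. miR-183-5p (30169711 to 30169732, minus strand) was at 21322, 22095 and 29206 CPM at E9.5 and 52575, 57886 and 70868 CPM at E11.5. The lowest E11.5 library lay above the highest E9.5 library, and the log2 fold change was 1.32 (standard error 0.24 and adjusted p = 0.00151, and 0.55 with RLE). Its precursor entry mir-183 was at 10539, 10209 and 6954 CPM at E9.5 and 22971, 29554 and 26850.3 CPM at E11.5, a log2 fold change of 1.52 (standard error 0.29 and adjusted p = 0.00198, and 0.80 with RLE). The arm lost its call in 6 of 12 alternatives that kept all libraries and in no fit that left out a library. Reads of the arm and of its precursor may overlap, so they do not count as independent.

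miR-182-5p (30165962 to 30165986, minus strand) was at 43196, 38113 and 31154 CPM at E9.5 and 55429, 64252 and 67789 CPM at E11.5. The groups did not overlap, and the log2 fold change of 0.74 (standard error 0.20 and adjusted p = 0.0362) was close to the median of all tested entries and was 0.01 with RLE. Its call was lost when any 1 of E8.5 replicates 2 and 3, E9.5 replicates 2 and 3, E10.5 replicates 1 to 3 and E11.5 replicates 2 and 3 was omitted (0.52 to 0.78), and in 10 of 12 alternatives that kept all libraries. miR-96-5p, which lies between them on the genome, was at 32.5, 1944 and 3489.6 CPM at E9.5 and 328, 539 and 248 CPM at E11.5. E9.5 replicate 1 lay below every E11.5 library and the other E9.5 libraries lay above them, so the stages overlapped, and the log2 fold change was -2.29 (standard error 1.14 and adjusted p = 0.289). Within a library, miR-183-5p reads were 0.494 to 0.938 times those of miR-182-5p at E9.5 and 0.901 to 1.05 times at E11.5, with overlap between the stages.

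miR-375-3p, known for its role in pancreatic endocrine cells, was at 27818, 22597 and 17322 CPM at E9.5 and 42477, 63008 and 47562 CPM at E11.5. Every E11.5 library lay above every E9.5 library, a log2 fold change of 1.18 (standard error 0.25 and adjusted p = 0.00509, and 0.46 with RLE). Its E10.5 mean of 66879 CPM was above both stages, as was that of miR-182-5p (66311 CPM). The call was lost when E11.5 replicate 2 was omitted (0.95) and in 6 of 12 alternatives with all libraries. The other pancreatic arms were close to the floor at E9.5. miR-216b-5p had 0, 0 and 0 reads at E9.5 and 18, 71 and 0 reads at E11.5, and miR-217-5p, which was not tested, had 0, 1 and 0 reads at E9.5 and 107, 0 and 47 at E11.5. Their levels at E9.5 were not detectable at this depth.

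Against miR-122-5p, a miRNA of hepatocytes, miR-375-3p gained ground inside each library. The ratio of miR-122-5p to miR-375-3p was 3.28, 2.84 and 2.24 in E9.5 replicates 1 to 3 and 1.65, 0.688 and 0.907 at E11.5. All E11.5 ratios lay below all E9.5 ratios, whatever the scaling. An exact permutation test of 3 against 3 libraries cannot go below p = 0.10, and none was run. miR-122-5p itself was at 91248, 64255 and 38765 CPM at E9.5 and 69956, 43357 and 43118 CPM at E11.5, with overlapping groups. The other hepatic and gut miRNAs were low or scattered, as miR-194-5p had 184, 3 and 68 reads at E9.5 and 207, 1076 and 606 reads at E11.5 and miR-192-5p had 0, 2 and 0 reads at E9.5 and 118, 104 and 1 reads at E11.5.

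miR-3099-3p (chromosome 7, 6803638 to 6803659, plus strand, in an intron of Usp29) had the largest increase among the called entries. It was at 16.2, 85.4 and 50.6 CPM at E9.5 and 568, 1181 and 1580.2 CPM at E11.5, with 1, 8 and 2 reads behind the E9.5 values. The groups did not overlap, and the log2 fold change was 4.41 (standard error 1.13 and adjusted p = 0.0209, and 3.69 with RLE). Its E10.5 mean was already 1077 CPM. The call was lost when any 1 of E8.5 replicate 2 and E11.5 replicates 2 and 3 was omitted (4.16 to 4.39) and in 4 of 12 alternatives with all libraries.

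**Figure D2:**
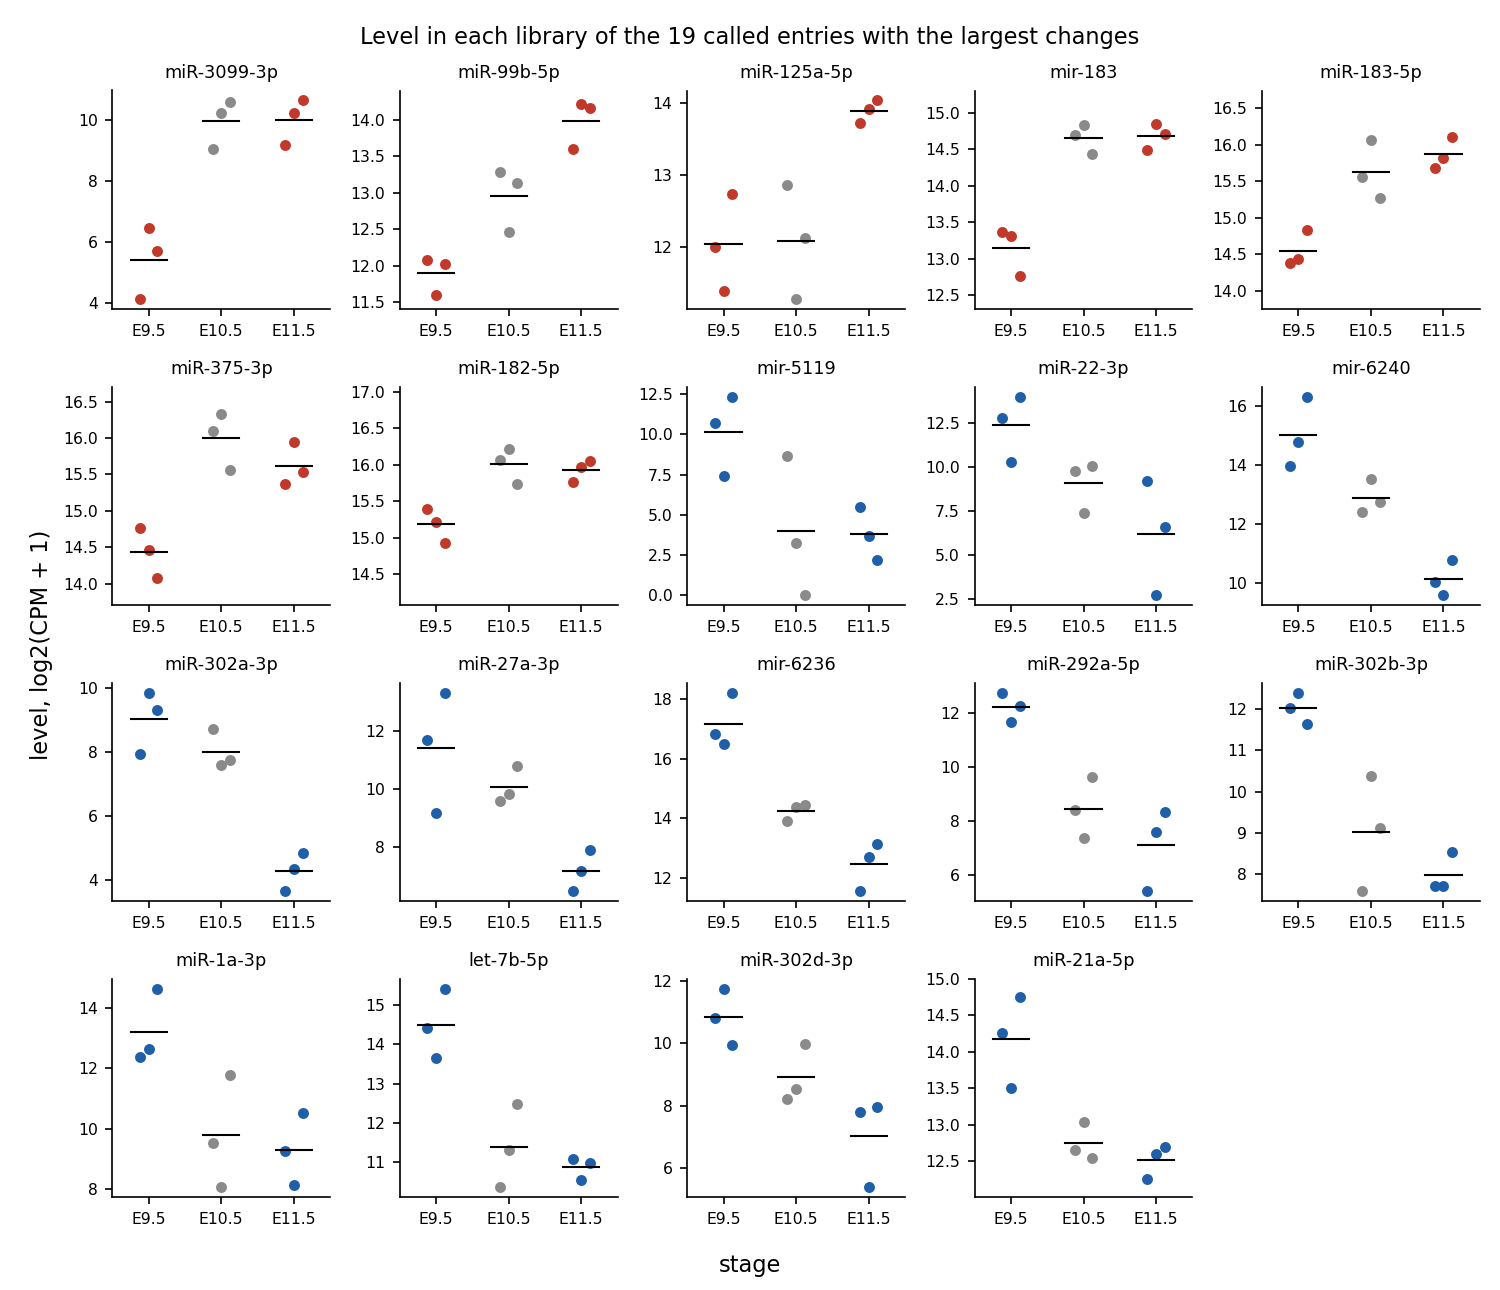
Level, as log2(CPM + 1), of 19 called entries in each library of the 3 later stages, with E9.5 and E11.5 points in red for entries that rose and in blue for entries that fell, E10.5 in grey, and a bar at the mean of the plotted log2 values of the 3 libraries. The vertical axes differ between panels. The E9.5 and E11.5 points are separate in every panel because the entries were chosen for that, so the plot shows sizes and spread.

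Among the entries that fell, the miR-302 cluster was the first group. It also encodes miR-367 and lies on chromosome 3 in an intron of Larp7, on the opposite strand. Of its 9 mature arms 8 were tested, 0 rose and 4 fell (3.33% of all tested entries fell). The median log2 fold change of the tested arms was -4.61 (-4.32 with members at 0 in a stage set at their bound or left out), against 0.66 over all entries. Some of these arms had few reads in every library, such as miR-302a-5p with 2, 2 and 4 reads at E9.5 and 0, 4 and 2 at E11.5. At such counts the worth of a read alone can make a fold change negative, so the median is no evidence that every arm fell. miR-302b-3p (127545275 to 127545297) was the most abundant, at 4141, 5404 and 3186 CPM in the E9.5 libraries (replicates 1 to 3) and 207, 209 and 370.4 CPM in the E11.5 libraries. The E11.5 libraries were all far below the E9.5 libraries, a log2 fold change of -4.01 (standard error 0.57 and adjusted p = 8.66e-05).

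miR-302d-3p was at 1803, 3471 and 986 CPM at E9.5 and 219, 40.2 and 248 CPM at E11.5, a log2 fold change of -3.63 (standard error 0.72 and adjusted p = 0.00251). miR-302a-3p was at 244, 918 and 632 CPM at E9.5 and 11.4, 19.2 and 27.7 CPM at E11.5, a log2 fold change of -4.91 (standard error 0.76 and adjusted p = 1.97e-04). Both were without overlap between the stages, and both kept their calls when any 1 library was left out. Each lost its call in 2 of 12 alternatives that kept all libraries (limma voom and a fit of the E9.5 and E11.5 libraries alone), and miR-302b-3p in 1 (limma voom). miR-302c-3p and the precursor entry mir-302b were also called, the second of them chosen after its values were known. miR-302c-3p had 2, 58 and 1 reads at E9.5 and 1, 1 and 5 reads at E11.5, so that most of its E9.5 reads came from replicate 2, and its log2 fold change of -6.09 (standard error 1.69 and adjusted p = 0.0362) lost its call when any 1 of E8.5 replicates 1 to 3, E9.5 replicate 2 and E11.5 replicates 1 to 3 was omitted (-6.93 to -3.30). mir-302b had 6, 63 and 12 reads at E9.5 and 9, 4 and 4 reads at E11.5, a log2 fold change of -5.24 (standard error 1.18 and adjusted p = 0.00826), whose call was lost when any 1 of E11.5 replicates 2 and 3 was omitted (-4.91 to -4.85).

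The summed level of the miR-302 arms went from 7404 ± 3160 CPM in the E9.5 libraries (SD, n = 3) to 457 ± 191 CPM at E11.5, and its E10.5 mean was 1797 CPM. miR-302b-3p made up 59.8% ± 9.24 of these reads at E9.5 and 60.0% ± 14.9 at E11.5. For neither stage do the labels give the mir-302 alleles of the sorted embryos, and their part in the difference was not tested.

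The miR-290 to miR-295 cluster on chromosome 7 was the second group. Of its 12 mature arms 11 were tested, 0 rose and 4 fell, and 8 lay lower at E11.5 without overlap, where 3.33% of all tested entries fell and 5.95% lay lower without overlap. Some of the 8 had few reads in every library, such as miR-291b-5p with 3, 2 and 2 reads at E9.5 and 2, 2 and 8 at E11.5. At such counts the worth of a read alone can separate the stages, so this separation is no evidence of a fall. The median log2 fold change of the tested arms was -4.74. It includes such arms of few reads, where the worth of a read alone can also make the fold change negative. miR-292a-5p (3219200 to 3219221, plus strand, opposite an exon of Nlrp12) carried most reads, at 6869, 3246 and 4906 CPM at E9.5 and 41.0, 194 and 325 CPM at E11.5. The lowest E9.5 library stood above every E11.5 library, a log2 fold change of -4.74 (standard error 0.74 and adjusted p = 1.97e-04), and the call held in all 12 alternatives that kept all libraries and in all 12 fits that each left out 1 library.

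The other 3 called arms of the cluster rested on fewer reads and varied more between libraries. miR-293-5p had 3, 75 and 4 reads at E9.5 and 3, 4 and 5 reads at E11.5, with a log2 fold change of -5.81 (standard error 1.40 and adjusted p = 0.0129) and was not called when any 1 of E9.5 replicate 2 and E11.5 replicates 1 to 3 was omitted (-5.83 to -3.88). miR-290a-5p, chosen after its values were seen, had 45, 6 and 2 reads at E9.5 and 0, 4 and 0 reads at E11.5. Its log2 fold change was -7.37 (standard error 1.81 and adjusted p = 0.0148), which was not called when any 1 of E8.5 replicate 2, E9.5 replicate 1 and E11.5 replicates 1 and 3 was omitted (-7.51 to -4.93). In each case a single E9.5 library held most of the reads.

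miR-295-5p, likewise chosen afterwards, had 47, 3 and 0 reads at E9.5 and 0, 1 and 1 reads at E11.5. The stage ratio from these reads was 303 (95% exact interval 79.7 to 2574, counting error only), the edgeR adjusted p was 0.0494, and the groups overlapped, since E9.5 replicate 3 had no reads. Its call was lost when any 1 of E8.5 replicates 1 to 3, E9.5 replicate 1 and E11.5 replicates 1 to 3 was omitted (-8.23 to -3.99). miR-294-3p had 257, 72 and 6 reads at E9.5 and 0, 113 and 75 reads at E11.5, and miR-293-3p had 39, 65 and 11 reads at E9.5 and 40, 15 and 9 reads at E11.5. Their adjusted p of 0.0501 and 0.0550 missed the threshold. The summed level of the 12 arms was 8353 ± 4369 CPM at E9.5 and 352 ± 220 CPM at E11.5, and the E10.5 mean was 1251 CPM.

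Reads were also summed by seed. Summing mature arms that share bases 2 to 8 gave 308 families tested, of which 18 were called (5.84%), 4 higher (1.30%) and 14 lower (4.55%), and 61 had an unadjusted p under 0.05. The AAGUGCU family, which holds miR-302b-3p, miR-302d-3p and miR-294-3p, fell by 4.20 on the log2 scale (SE 0.46, adjusted p = 2.19e-07). The CUCAAAC family of miR-292a-5p, miR-293-5p and miR-290a-5p fell by 5.01 (SE 0.66, adjusted p = 3.97e-06). The ACCCGUA family of miR-99b-5p, miR-99a-5p and miR-100-5p rose (log2 fold change 1.89, standard error 0.38 and adjusted p = 0.00155). The CCCUGAG family of miR-125a-5p and its relatives was not called (1.05, adjusted p = 0.0957). The family fit also called the single arms miR-203-3p, miR-293-3p and miR-320-3p lower, which the fit over entries did not. Arms without a sequence in the RefSeq table, miR-302a-3p among them, were given no seed and were each kept as a feature of their own.

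The let-7 family changed in make-up. Its 9 5p arms, all with the seed GAGGUAG, were tested one by one, and 1 fell and 0 rose, with a median log2 fold change of -1.34. Summed by seed they fell (log2 fold change -1.05, standard error 0.29 and adjusted p = 0.0239). The stages were separate on the scale of the fit over families (108610.0, 68260.3 and 195288 CPM at E9.5, 66281, 53639 and 60422 CPM at E11.5). On the scale of the fit over entries they overlapped (87805, 49358 and 142442 and 58109.5, 45453 and 51079 CPM), with E9.5 replicate 3 highest on both. The E10.5 mean was below both stages.

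let-7b-5p (chromosome 15, 85707325 to 85707346, plus strand, in an exon of Lncppara) was the arm that fell. It was at 21793, 12879 and 43999 CPM in the E9.5 libraries (replicates 1 to 3) and 2134, 1476 and 2016 CPM in the E11.5 libraries, a log2 fold change of -3.81 (standard error 0.68 and adjusted p = 0.00109), and kept its call in every alternative and every fit that left out 1 library. Its share of let-7 5p reads was 24.8, 26.1 and 30.9% at E9.5 and 3.67, 3.25 and 3.95% at E11.5. let-7e-5p moved the other way, with a share of 6.55, 6.82 and 6.41% at E9.5 and 33.0, 24.8 and 27.5% at E11.5. Neither share overlapped between the stages, and no scaling enters them.

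Of the next arms, let-7a-5p held a more even share, whereas the shares of let-7c-5p and let-7f-5p varied widely among the E9.5 libraries. let-7a-5p took 25.8, 19.3 and 27.8% at E9.5 and 23.1, 25.5 and 24.9% at E11.5. let-7c-5p, of which 1 copy lies beside let-7b on chromosome 15 (85706616 to 85706637), took 7.25, 28.7 and 16.5% at E9.5 and 24.9, 30.6 and 29.7% at E11.5. let-7f-5p took 29.8, 9.26 and 12.1% at E9.5 and 9.27, 12.5 and 8.61% at E11.5. For these 3 arms the stages overlapped. The ratio of let-7b-5p to let-7a-5p was 0.962 to 1.35 at E9.5 and 0.127 to 0.159 at E11.5, and that of let-7e-5p to let-7a-5p was 0.231 to 0.352 and 0.971 to 1.43. The arms compared here differ by 1 or 2 bases, and how the counting divided reads between them was not tested.

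**Figure D3:**
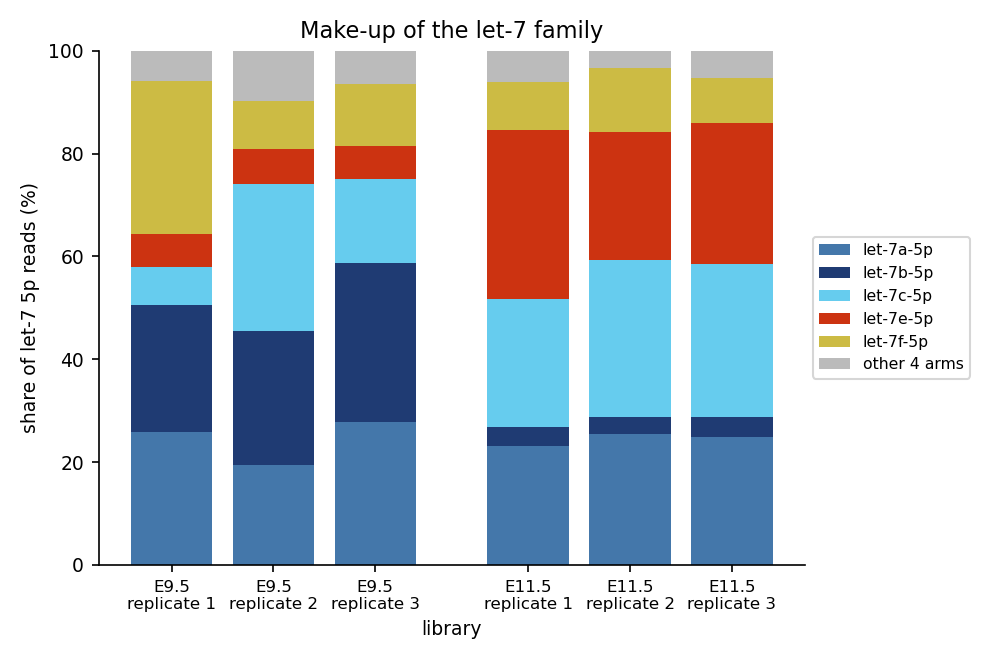
Share of let-7 5p reads (%) taken by each arm in the 3 E9.5 and the 3 E11.5 libraries, as bars stacked to 100%. let-7b-5p (dark blue) takes 24.8 to 30.9% at E9.5 and 3.25 to 3.95% at E11.5, and let-7e-5p (red) takes 6.41 to 6.82% and 24.8 to 33.0%.

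miR-27a-3p fell, and its near-identical relative miR-27b-3p was not called. miR-27a-3p (chromosome 8, 84208727 to 84208747, plus strand, between genes) was at 3329, 587 and 10241 CPM at E9.5 and 88.9, 144 and 241 CPM at E11.5, without overlap, a log2 fold change of -4.90 (standard error 1.07 and adjusted p = 0.00653), which was not called by limma voom. miR-27b-3p, from a separate cluster on chromosome 13, was at 5164, 2809 and 14388 CPM at E9.5 and 4048, 5681 and 5765 CPM at E11.5, with overlapping groups. Within a library the ratio of miR-27a-3p to miR-27b-3p was 0.645, 0.209 and 0.712 at E9.5 and 0.0220, 0.0253 and 0.0417 at E11.5, so that all E11.5 ratios lay below all E9.5 ratios.

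The neighbours of miR-27a on chromosome 8 are miR-23a and 1 of the copies of miR-24. miR-23a-3p was at 1543, 1698 and 936 CPM at E9.5 and 385, 167 and 322 CPM at E11.5, without overlap, and its log2 fold change of -2.26 was not called (standard error 0.90 and adjusted p = 0.193). Its ratio to miR-23b-3p was 0.170 to 0.559 at E9.5 and 0.0361 to 0.0795 at E11.5, again without overlap. Inside the chromosome 8 cluster, the ratio of miR-27a-3p to miR-23a-3p was 2.16, 0.346 and 10.9 in E9.5 replicates 1 to 3. At E11.5 that ratio was 0.231, 0.858 and 0.746, so the stages overlapped, and the E9.5 replicates differed widely. miR-24-3p, which both clusters encode, was at 8948, 8853 and 10039 CPM at E9.5 and 9971, 9984 and 10573 CPM at E11.5.

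miR-21a-5p and miR-22-3p, widely expressed miRNAs that lie in exons of Vmp1 and Mir22hg on chromosome 11, fell as well. miR-21a-5p (86584120 to 86584141, minus strand) was at 19552, 11555 and 27639 CPM at E9.5 and 4867, 6171 and 6642 CPM at E11.5, a log2 fold change of -1.73 (standard error 0.40 and adjusted p = 0.00976). The groups did not overlap, and the call was lost when any 1 of E11.5 replicates 1 to 3 was omitted (-1.78 to -1.47). miR-22-3p (75463772 to 75463793, plus strand) was at 6999, 1249 and 16259.6 CPM at E9.5 and 588, 5.49 and 95.0 CPM at E11.5. Levels varied widely among the libraries of both stages but did not overlap, and the log2 fold change was -5.16 (standard error 1.22 and adjusted p = 0.0112), without a call in a fit of the E9.5 and E11.5 libraries alone. In both cases E9.5 replicate 3 was the highest library.

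miR-1a-3p, the miRNA of striated muscle, was at 5261, 6354 and 25464 CPM at E9.5 and 609, 279.9 and 1461 CPM at E11.5, a log2 fold change of -3.98 (standard error 0.85 and adjusted p = 0.00509) that was not called by limma voom, and E9.5 replicate 3 again stood highest. The other muscle arms had few reads. miR-133a-3p had 0, 0 and 55 reads at E9.5 and none at E11.5, and miR-206-3p had 1, 0 and 0 reads at E9.5 and 106, 0 and 208 at E11.5. The summed level of the 4 muscle arms ranged from 5278 to 26855 CPM in the E9.5 libraries and from 281 to 1711 CPM in those of E11.5. In sorted bulk samples fewer cells of a type and less RNA per cell cannot be told apart.

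The remaining called entries, all lower at E11.5, were mir-6236, mir-6240, mir-5119, miR-5119 and miR-362-5p. The precursor entries mir-6236 and mir-6240 were at 116272, 91486 and 304607 CPM at E9.5 and 2993, 6675 and 8955 CPM at E11.5 and at 15931, 28203 and 82158 CPM at E9.5 and 1062, 772 and 1769 CPM at E11.5. Their log2 fold changes were -4.78 (standard error 0.46 and adjusted p = 2.67e-07) and -5.13 (standard error 0.56 and adjusted p = 1.39e-06). Together they took 12.7, 14.0 and 28.3% of reads in E9.5 replicates 1 to 3 and 0.426, 0.738 and 1.06% at E11.5. Both were classed as precursors by their names, and whether their reads come from miRNA hairpins was not tested. With both left out before the scaling, the test called 26 entries, of which 5 were higher and 21 lower.

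miR-5119 and its precursor mir-5119 come from an intron of Cdk12 on chromosome 11. The precursor had 103, 16 and 208 reads at E9.5 and 19, 13 and 3 reads at E11.5, a log2 fold change of -6.93 (standard error 1.79 and adjusted p = 0.0227), and lost its call when any 1 of E9.5 replicate 3 and E11.5 replicates 2 and 3 was omitted (-6.69 to -5.69). miR-5119, chosen after its values were seen, had 0, 87 and 57 reads at E9.5 and 0, 0 and 0 reads at E11.5. E9.5 stood at least 582-fold higher than E11.5 (bound from 3 reads over the 3 E11.5 libraries), with an edgeR adjusted p of 0.0267 and overlapping groups, since E9.5 replicate 1 also had no reads. The call was lost when any 1 of E11.5 replicates 1 to 3 was omitted (-11.17 to -10.99).

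miR-362-5p, also chosen afterwards, comes from an intron of Clcn5 on the X chromosome and had 183, 1 and 1 reads at E9.5 and 0, 1 and 2 reads at E11.5. The ratio of E9.5 to E11.5 was 748 (95% exact interval 252 to 3662, counting error only). It rested on E9.5 replicate 1, and the edgeR adjusted p of 0.00976 became 0.508 when that library was left out (log2 fold change -3.45).

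Before scaling, the entries that fell had about as many reads or fewer at E11.5 than at E9.5, with 1 exception. Summed over the 3 libraries of a stage, E11.5 had a median of 16.7 times the reads of E9.5 over the 535 tested entries with reads at E9.5. For the 7 risers this ratio was 20.2 to 259. For the 19 entries that fell it was 0 to 4.26 with a median of 0.389, and it was under 1 for 18 of the 19, the exception being miR-21a-5p. let-7b-5p had 1342, 1206 and 1740 reads at E9.5 and 936, 1614 and 1676 reads at E11.5, and miR-1a-3p had 324, 595 and 1007 reads at E9.5 and 267, 306 and 1215 reads at E11.5. For both, the read numbers of the small and the large libraries overlapped. Whether reads that do not grow with library size have a part in these calls was not tested.

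**Figure D4:**
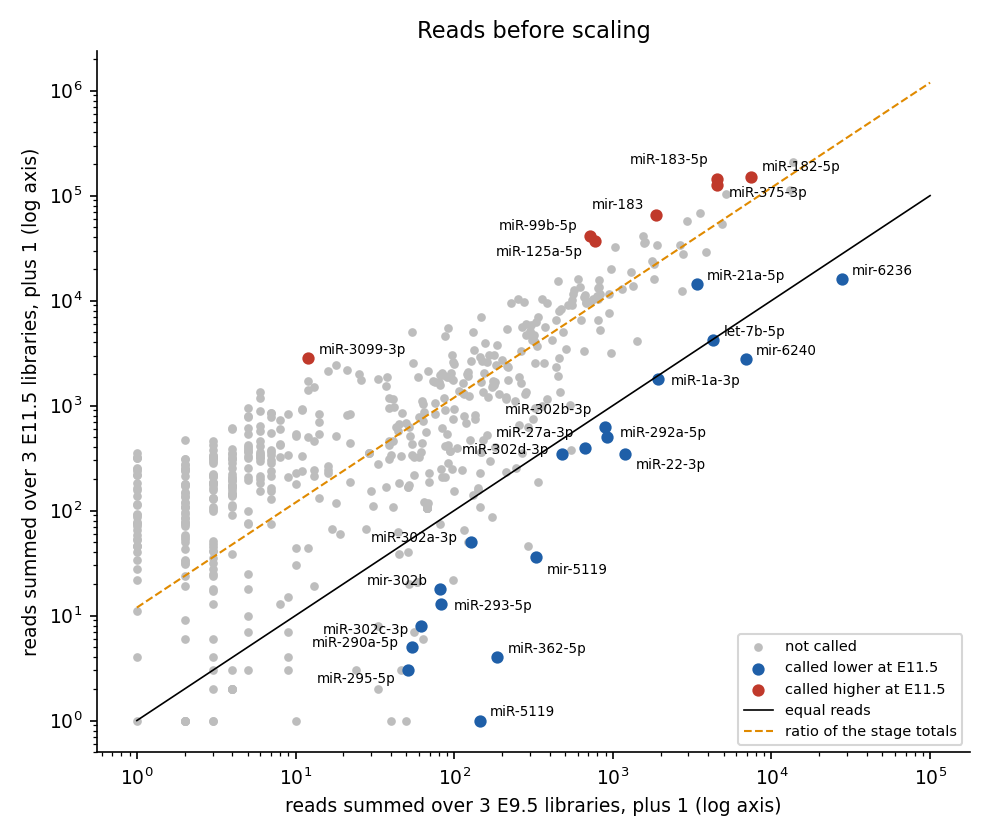
Reads of each tested entry summed over the 3 E9.5 libraries (horizontal) and the 3 E11.5 libraries (vertical), each plus 1, on log axes. The solid line marks equal reads, the dashed line the ratio of the stage totals (11.9). Red points (entries that rose) lie above the dashed line, and blue points (entries that fell) lie near or below the solid line, except miR-21a-5p, which lies between the lines.

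The E10.5 mean lay between the E9.5 and the E11.5 mean for all 19 entries that fell and for 5 of the 7 that rose, and above both for miR-375-3p and miR-182-5p. Over all tested entries it lay between them for 226 of 571 (39.6%), and entries called for a difference between the outer stages are the more likely to have a mean between them.

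Of the 10 most abundant arms of each stage, 7 were shared. By share of all reads, miR-92a-3p ranked first at both, with 6.72% ± 1.55 at E9.5 and 8.17% ± 2.04 at E11.5 (SD, n = 3). It is encoded at 2 loci, 1 of them in the miR-17/92 cluster, and its reads are not divided between them. At E9.5 it was followed by miR-122-5p (6.37% ± 3.12), miR-182-5p (3.63% ± 1.18) and miR-409-3p (2.51% ± 0.404). At E11.5 it was followed by miR-182-5p (6.30% ± 0.445), miR-183-5p (6.09% ± 0.803) and miR-122-5p (5.30% ± 1.77). The 10 leading arms took 32.3% ± 5.70 of reads at E9.5 and 44.8% ± 1.79 at E11.5. let-7a-5p, let-7b-5p and miR-21a-5p were among the 10 at E9.5 only, and miR-379-5p, miR-26a-5p and miR-30d-5p at E11.5 only.

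Several abundant arms lay higher at E11.5 without overlap and did not pass the test. miR-30d-5p was at 7908, 5905 and 12669 CPM at E9.5 and 16606, 16324 and 19357 CPM at E11.5 (log2 fold change 0.98, standard error 0.34 and adjusted p = 0.111, and 0.18 with RLE). miR-26a-5p was at 14518, 13947 and 18055 CPM at E9.5 and 19829.5, 26689.6 and 24125 CPM at E11.5, and miR-379-5p, of the imprinted Dlk1-Dio3 cluster, at 17473, 18774 and 17347 CPM at E9.5 and 35592, 27184 and 27266 CPM at E11.5. Their fitted changes were at or below 0 with RLE scaling. miR-7a-5p, a miRNA of endocrine and neuroendocrine cells, was at 31033, 28064 and 16538 CPM at E9.5 and 30518, 48235 and 46349 CPM at E11.5, with overlap (log2 fold change 0.73, standard error 0.26 and adjusted p = 0.126).

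Of the 307 mature arms in 28 lists (families, genomic clusters and tissue or cell type miRNAs), 18 were called, all in 9 lists described above. No member was called in the Dlk1-Dio3 cluster (69 of 85 tested, median log2 fold change 0.64), the Sfmbt2 cluster (20 of 28 tested, -0.46), miR-17/92 and its paralogues (20 of 23 tested, 0.79), miR-26 and miR-30 (12 of 15 tested, 0.61) or the Hox-linked miR-10 and miR-196 (7 of 8 tested, 0.59), against 0.66 over all tested entries and a share of calls of 4.55%. The lists of miR-7, miR-15 and miR-16, miR-148 and miR-152, miR-181, miR-34 and miR-449, miR-29, miR-130 and miR-301, and of neural miRNAs also held no call.

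Of the markers of other cell types that a trunk sort could hold, the muscle arm miR-1a-3p fell, as given above. In the mesenchymal list 6 of 9 arms were tested and none was called, and 3 lay higher at E11.5 without overlap (16.6% of all tested entries did). The list median was a log2 fold change of 1.95 (1.24 with RLE), against 0.66 over all tested entries with TMM scaling. miR-214-3p had 0, 2 and 3 reads at E9.5 and 276, 285 and 622 reads at E11.5. In E9.5 replicate 3, miR-199a-3p and miR-199b-3p stood at 3667 and 3616 CPM, most of the sum of the list there. Both arms have the same sequence and nearly equal reads, so they are not independent, and the sum of the list may count the same reads again. The most abundant mesenchymal arm, miR-143-3p, was at 2014, 1111 and 1214 CPM at E9.5 and 5530.1, 2827 and 5003 CPM at E11.5, without overlap (log2 fold change 1.62, standard error 0.51 and adjusted p = 0.0702), and the sum of the list ranged from 1655 to 8598 CPM and from 4315 to 9364 CPM. The endothelial arms summed to 32.5 to 406 CPM and 34.2 to 423 CPM. miR-451a, which defines erythroid cells, had at most 2 reads in any of the 6 libraries. Also in the erythroid list, miR-486a-5p had 1, 31 and 6 reads at E9.5 and 288, 623 and 271 reads at E11.5 and was not called (log2 fold change 1.62, standard error 1.20 and adjusted p = 0.457), and the sum of the list ranged from 48.7 to 673 CPM and from 631 to 1338 CPM. miR-486b-5p had 1, 32 and 5 reads at E9.5 and 288, 412 and 254 reads at E11.5. Its counts lie close to those of miR-486a-5p in most libraries, so these arms may share reads and do not count as independent. The leukocyte miRNA miR-223-3p, which was not tested, was at 1673, 0 and 2655 CPM at E9.5 (103, 0 and 105 reads) and had 0, 0 and 1 reads at E11.5. miR-155-5p, the tested leukocyte arm, had 2, 0 and 1 reads at E9.5 and 5, 110 and 171 reads at E11.5 and was not called (log2 fold change 2.52, standard error 1.87 and adjusted p = 0.457). The part of such cells in the results above was not tested.

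The epithelial list held 11 arms, of which 9 were tested and none was called. Without overlap, 3 arms lay higher at E11.5 and 1 lay lower, where the shares over all tested entries were 16.6% and 5.95%. The list median was a log2 fold change of 0.90, against 0.66 over all tested entries. The lower arm was miR-200a-3p, at 3215, 1335 and 3287 CPM at E9.5 and 604, 862 and 835 CPM at E11.5. miR-200c-3p was at 8769, 6429 and 10671 CPM at E9.5 and 11446, 16398 and 15066 CPM at E11.5, without overlap, and its fitted change was near 0 with RLE scaling. miR-203-3p was at 1803, 2413 and 27209 CPM at E9.5 and 1069, 1724 and 2106 CPM at E11.5, and its high E9.5 level came from replicate 3 (log2 fold change -2.68, standard error 0.89 and adjusted p = 0.0997). Among 5 tested arms of miR-181, miR-181a-5p was at 16.2, 459 and 228 CPM at E9.5 and 1377, 1692 and 3051 CPM at E11.5, without overlap (log2 fold change 3.11, standard error 1.11 and adjusted p = 0.126). None of these values passed the test at this depth.

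**Figure D5:**
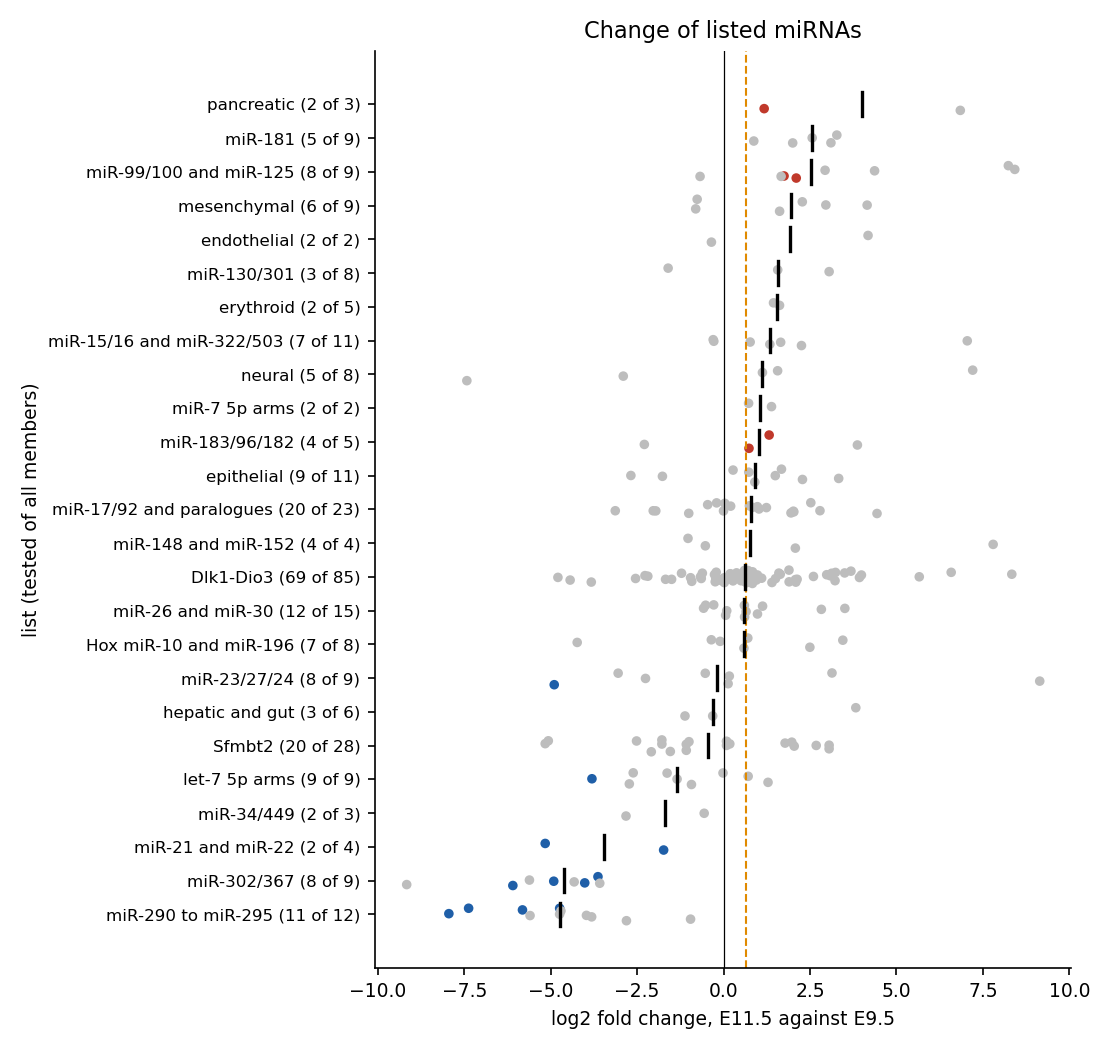
Log2 fold change (E11.5 against E9.5, TMM scaling) of the tested members of each list with at least 2 of them, with calls in red (higher) and blue (lower), the list median as a black bar and the median of all tested entries (0.66) as a dashed line. Calls lower at E11.5 are gathered in the miR-290 and miR-302 lists, with single ones in the let-7 and miR-23/27/24 lists and both tested arms of miR-21 and miR-22. Medians of lists with members at 0 in a stage, such as the pancreatic list (4.01, or 1.23 with that member at its bound), depend on the prior count. Those of the miR-290 and miR-302 lists include members with few reads in every library.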

How the data were processed

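Small RNA libraries from sorted cells (RNA by Trizol LS and the miRNeasy micro kit, NEXTflex small RNA kit v3, Illumina NextSeq) were processed by the authors with COMPSRA. Adapters and random bases were trimmed, reads of 17 to 35 bases (to 36 in E8.5 replicate 1 and E9.5 replicate 3) were aligned with STAR to mm10, and counts per mature or precursor miRNA entry were deposited as raw counts without UMI collapse.

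The deposited counts of all 12 libraries entered 1 fit in edgeR 4.0.16 (R 4.3.3; TMM factors, filterByExpr with minimum count 10 and total 15, quasi-likelihood test, Benjamini-Hochberg adjustment), with stage as the factor and the contrast of E11.5 minus E9.5. Of 1053 entries, 571 were tested. SE is the log2 fold change divided by the square root of F. Values are mean ± SD of 3 libraries. Entries were called at an adjusted p under 0.05. Named entries were up to 12 calls in each direction with the largest change, no overlap and at least 10 reads in each library of the higher stage, the 10 most abundant arms of each stage, up to 4 arms per list, and arms at 1000 CPM or more with a log2 change under 0.5. Members and lists were chosen with earlier results of these data known. Seeds were assigned to 541 of 633 mature arms from RefSeq (GRCm38.p6), and positions were set against GENCODE. Entries with near-identical copies are uncertain, and 47 entries with over 100 reads equal another entry in all libraries. Alternatives were RLE factors, library size alone, other filters, DESeq2 1.42.0, limma voom 3.58.1, the 6 libraries alone, a replicate block, thinning to 53996 reads, entry subsets and leaving out each library. The fit was tested on simulated data, where TMM scaling placed unchanged entries above 0 in this contrast, as given in the Results. No replicate pair agreed within sampling noise.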

Additional observations from a re-analysis of the deposited data

How the results depend on the processing

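The number of called entries (26) was 64 with DESeq2 (7 higher, 57 lower, 20 of them shared), 6 with limma voom, 10 with only the E9.5 and E11.5 libraries, and 17 to 38 when each library was left out, with 17 without E11.5 replicate 2 or 3. The other alternatives gave 18 to 37, from 18 with all libraries thinned to 53996 reads (1 higher, 17 lower) to 37 with no low-count filter. Seed families called (18) were 38 with DESeq2, 4 with limma voom, 6 with the 6 libraries alone, 9 after thinning, and 12 to 23 when each library was left out. Of the 19 entries named for the size of their change, 12 stayed called with RLE, 6 with limma voom, 9 with the 6 libraries alone, 12 after thinning, and 13 to 19 when each library was left out. Splits between higher and lower moved with the setting: 0 and 27 with RLE, 3 and 27 with a minimum count of 50, 5 and 20 with mature arms only, 5 and 23 with identical entries kept once, and 6 and 31 with no filter. No called entry changed direction under any alternative or left-out library. The causes were not tested.

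The replicate numbers do not pair the samples (correlations of same-numbered deviations -0.03, -0.10 and -0.03), and a fit with the replicate number as a block called 23 entries, 15 families and 19 of the 19 named entries. Under the block miR-302c-3p, miR-295-5p and miR-362-5p were not called. Depth limits E9.5, where 1 read is worth 10.7 to 25.3 CPM.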

Other observations

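The share of reads on the 5p arm, which no scaling between libraries enters, was computed for 38 hairpins with at least 50 reads on both arms together in all 6 libraries. It did not overlap between E9.5 and E11.5 for 5 of them (13.2%). For miR-200a, of the epithelial miR-200 family, the 5p share was 0, 0.794 and 2.99% in E9.5 replicates 1 to 3, with 126 to 198 reads behind them, and 11.7, 21.6 and 19.3% at E11.5. For miR-379 it was 99.1 to 99.8% at E9.5 and 95.6 to 97.2% at E11.5, and for miR-30e 90.7 to 99.0% and 87.5 to 89.4%. miR-125a and miR-183 moved by less than 1 percentage point in the mean. The 5 hairpins were picked out by their values, and no test was run.

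Of the 901 entries with reads in any of the 6 libraries, 85 had reads at E9.5 only and 192 at E11.5 only.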
